A study of Homo sapiens with 4 samples.

Results

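The genes examined here were the 3 integrin alpha chains ITGA3, ITGA6 and ITGA7, followed through every splicing event that carries their symbols in the deposited tables. These were 71 of 121269 events, with 34 in ITGA3, 2 in ITGA6 and 35 in ITGA7. By type they were 49 skipped exon (SE) events, 20 events of mutually exclusive exons (MXE), 1 alternative 3′ splice site and 1 alternative 5′ splice site, and no retained intron. The genes were chosen on the comparison of RBFOXi with SCRM in these same libraries, because a pair of ITGA7 exons had the smallest adjusted p-value among MXE events in an earlier analysis. Their values in that comparison are therefore a description and support nothing further.

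RNA-seq was performed on U87MG cells, a glioblastoma cell line, transfected with 2.5 µM of an RNA oligonucleotide. RBFOXi is a decoy made of repeats of the motif that the splicing factors RBFOX1 and RBFOX2 bind, and SCRM is a scrambled control made to resemble no known exonic splicing enhancer. There were 2 libraries of each, from independent biological replicates of one cell line. In RBFOXi replicate 1 the labels describe the oligonucleotide as linked to the dye Cy5, and they name no dye for the other 3 libraries, so that dye and oligonucleotide are mixed within the RBFOXi group.

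Integrins are receptors of an alpha and a beta chain that attach cells to the extracellular matrix, and integrin alpha 3, alpha 6 and alpha 7 form a family of laminin receptors. ITGA7 carries either of a pair of neighbouring exons, X1 or X2, which code for alternative stretches of the ligand-binding extracellular head, and X2 is known as the main form of adult muscle. All 3 chains also have alternative cytoplasmic tails: when the exon for tail A is included it supplies the end of the protein or shifts its frame, and when it is skipped the chain ends with tail B. RBFOX proteins bind UGCAUG in introns and, in general, favour an exon that lies before the motif and repress one that lies after it.

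The sequences of the alternative exons are shown because the events below are choices between them. They were read from the GRCh37 genome, which is hg19, on the strand of the gene, and each is coding in GENCODE. X1 lies at chr12:56094046-56094177 and X2 at chr12:56093654-56093773, both on the minus strand, so X1 is transcribed first. X1 has 132 nt and X2 has 120 nt, and with both lengths in multiples of the codon either exon keeps the reading frame. Aligned to each other, they were identical at 64 of 120 aligned bases (53.3%), with 9 of their last 10 bases alike.
ITGA7 X1 coding: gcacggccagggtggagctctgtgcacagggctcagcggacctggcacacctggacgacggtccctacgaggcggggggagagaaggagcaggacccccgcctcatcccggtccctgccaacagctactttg
ITGA7 X2 coding: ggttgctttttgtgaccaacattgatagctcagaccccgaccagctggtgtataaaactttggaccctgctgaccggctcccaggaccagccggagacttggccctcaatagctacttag

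The coding parts of the tail A exons show how the 3 chains resemble each other just inside the membrane. The capitals mark the first 12 bases, of which 10 to 11 were identical in each pair of genes. Over the aligned coding parts, ITGA3 and ITGA6 were identical at 62 of 105 bases (59.1%), ITGA6 and ITGA7 at 61 of 104 (58.7%) and ITGA3 and ITGA7 at 53 of 108 (49.1%).
ITGA3 tail A coding: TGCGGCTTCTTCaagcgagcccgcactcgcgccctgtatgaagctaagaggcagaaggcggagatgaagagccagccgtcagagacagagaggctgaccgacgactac
ITGA6 tail A coding: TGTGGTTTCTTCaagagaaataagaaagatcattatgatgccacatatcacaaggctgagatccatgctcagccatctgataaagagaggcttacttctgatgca
ITGA7 tail A coding: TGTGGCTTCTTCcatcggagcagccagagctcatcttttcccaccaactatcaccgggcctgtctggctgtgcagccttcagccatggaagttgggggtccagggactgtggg

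For each event the files give the reads that fit the form with the exon (inclusion) and the form without it (skipping), and the number of read positions open to each form (effective length). The proportion spliced in (PSI, from 0 to 1) was the inclusion count per position over the sum of both forms, and delta PSI was mean PSI with RBFOXi minus mean PSI with SCRM, so that it is negative where inclusion was lower with RBFOXi. Summed over all SE events, the libraries held 114415530 to 136097319 counts, where 1 read can enter several events. With 2 libraries against 2 no exact permutation test can pass a threshold of 0.05, so differences are set against the spread between the replicates.

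The 3 genes differed widely in how many reads they gave. The median count per effective position over their SE events was 140 and 101 in the RBFOXi libraries and 77.4 and 106 in the SCRM libraries for ITGA3. It was 8.16 and 4.18 with RBFOXi and 5.43 and 4.24 with SCRM for ITGA7, and for ITGA6 0.189 and 0.182 with RBFOXi and 0.0977 and 0.261 with SCRM. The order ITGA3, ITGA7, ITGA6 held in each library without overlap, and within each gene the 2 groups overlapped. In all 4 libraries, values for ITGA6 therefore rest on few reads, and those for ITGA3 on many.

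The largest differences among the 3 genes were in the choice between X1 and X2 of ITGA7. In the MXE readout, which sets X1 against X2, PSI of X1 was 0.503 and 0.522 with RBFOXi and 0.791 and 0.781 with SCRM. The groups did not overlap, and their means were 0.512 ± 0.0134 and 0.786 ± 0.00720 (SD, n = 2 each), for a delta PSI of -0.274. The counts behind these values were 984 and 539 for X1 with RBFOXi against 895 and 941 with SCRM, and 916 and 465 for X2 with RBFOXi against 222 and 248 with SCRM. X1 and X2 thus had nearly the same use per position in the RBFOXi libraries (ratio of X1 to X2 1.01 and 1.09), and X1 exceeded X2 in the SCRM libraries (3.79 and 3.57). A further MXE event joins the same exons to a different exon on the 3′ side. Its PSI of X1 was 0.513 and 0.524 with RBFOXi and 0.797 and 0.799 with SCRM (delta PSI -0.279). It shares the reads on the exons with the first event and is not an independent measurement.

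The SE tables read the same exons in another way. In an SE event, X1 or X2 is set against transcripts that join the exon before the pair directly to the exon after it, so reads from the other member of the pair enter neither form. The inclusion counts of X1 and X2 in their SE events were the same numbers as in the MXE event. The skipping counts, which were the same for both exons, were 32 and 13 with RBFOXi and 3 and 4 with SCRM. PSI of X1 in the SE readout was 0.928 and 0.946 with RBFOXi and 0.992 and 0.990 with SCRM, a delta PSI of -0.0539. PSI of X2 was 0.928 and 0.941 with RBFOXi and 0.971 and 0.965 with SCRM, a delta PSI of -0.0335. These sizes depend on the division by length: as plain shares of the counts the delta PSI was -0.0237 for X1 and -0.0159 for X2. A further SE event of each exon, with a different exon on the 3′ side, did not show this. Both had skipping counts of 0 and 0 with RBFOXi and 0 and 1 with SCRM, too few to be tested. Their delta PSI was 0.00213 for X1 and 0.00835 for X2. In the first SE events X2 was thus lower with RBFOXi. In the MXE readout it was higher, with a PSI of 0.497 and 0.478 with RBFOXi and 0.209 and 0.219 with SCRM. X1 was lower with RBFOXi in the first SE events and in the MXE readout, by an SE difference of -0.0539 and an MXE difference of -0.274.

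**Figure D1:**
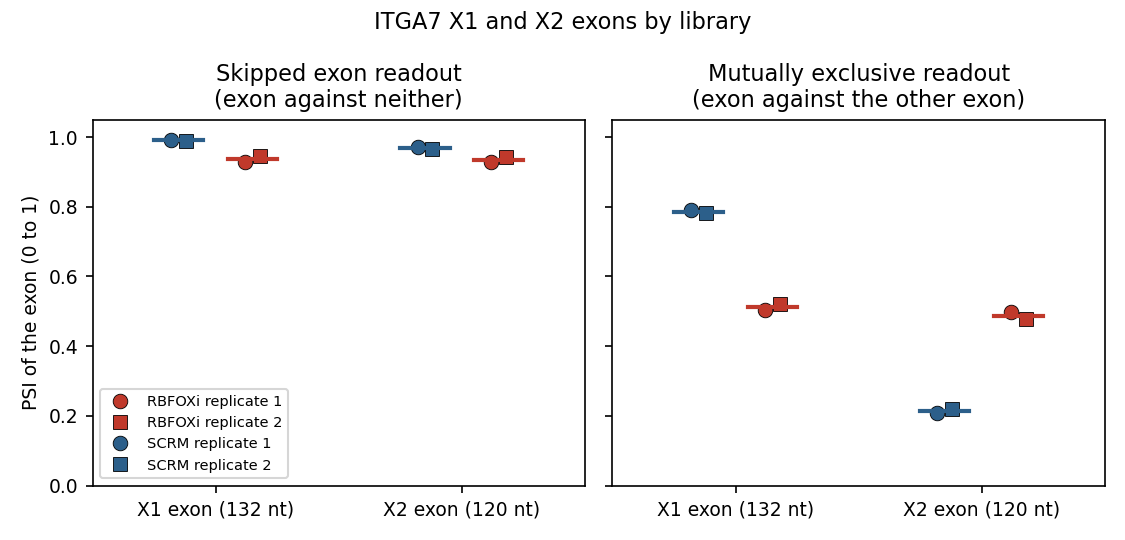
PSI (0 to 1) of the ITGA7 exons X1 and X2 in each library, in the skipped exon readout (left) and the mutually exclusive readout (right), with lines at the group means. On the left all values lie between 0.928 and 0.992, and on the right X1 is at 0.503 and 0.522 with RBFOXi against 0.791 and 0.781 with SCRM, with X2 the mirror image.

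Taking the counts of X1, X2 and the direct junction together, each per position, gives a share for each of the 3 outcomes. X1 took 48.4% and 50.7% with RBFOXi and 78.7% and 77.5% with SCRM. X2 took 47.9% and 46.4% with RBFOXi and 20.7% and 21.7% with SCRM. Neither exon was used in 3.73% and 2.90% with RBFOXi and in 0.625% and 0.782% with SCRM. None of the 3 shares overlapped between the groups. The last share is the smallest and rests on the fewest reads. As a plain share of the counts it was 1.66% (95% exact Clopper-Pearson interval 1.14 to 2.33) and 1.28% (0.682 to 2.18) with RBFOXi, and 0.268% (0.0553 to 0.781) and 0.335% (0.0914 to 0.856) with SCRM. The intervals cover counting error only, and the reads carry no molecular identifiers.

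The exons X1 and X2 were also set against the next exon downstream, of 208 nt, which has a PSI above 0.95 in every library. In the MXE events used for this, the 208 nt exon had 1182 and 606 counts with RBFOXi and 672 and 679 with SCRM. In the MXE event with the neighbouring 194 nt exon on the 3′ side, it had 1945 and 982 with RBFOXi and 1104 and 1079 with SCRM. The events used thus leave out reads of the 208 nt exon, and also of X1 and X2, so the ratios are not levels of use. As a ratio of the counts per position in these events, X1 to that exon stood at 0.711 and 0.713 with RBFOXi and at 1.01 and 1.16 with SCRM. X2 stood at 0.676 and 0.647 with RBFOXi and at 0.258 and 0.292 with SCRM. The sum of both was 1.39 and 1.36 with RBFOXi and 1.27 and 1.45 with SCRM, and here the groups overlapped. Because of the reads left out, these sums do not show that X1 and X2 together exceed the next exon. Relative to the next exon, X1 was lower and X2 higher in both RBFOXi libraries, while the sum showed no difference beyond the spread between replicates (means 1.37 ± 0.0191 and 1.36 ± 0.127, SD, n = 2 each). No event in the files covers transcripts with X1 and X2 together, so these were not counted as an outcome of their own.

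**Figure D2:**
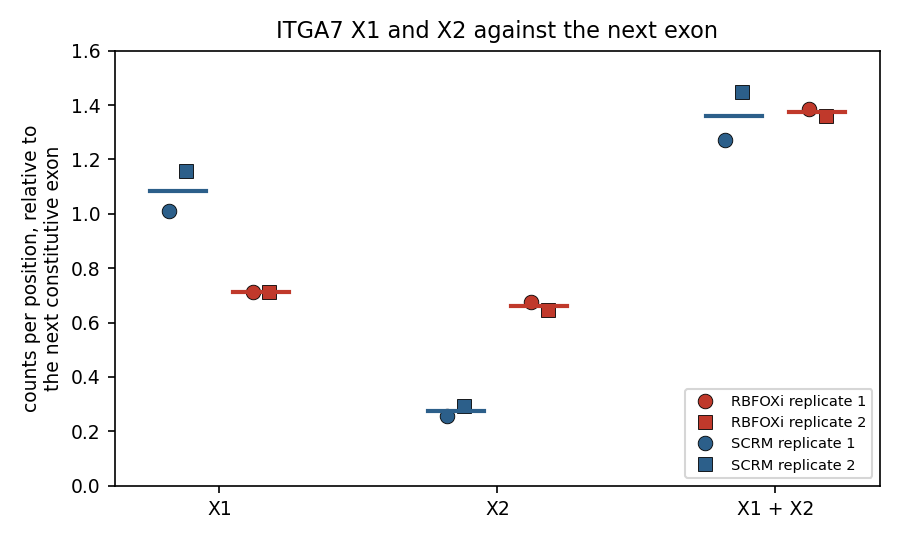
Counts per position of X1, of X2 and of their sum in each library, relative to the next exon downstream in ITGA7, with lines at the group means. X1 is lower in both RBFOXi libraries (0.711 and 0.713) than in the SCRM libraries (1.01 and 1.16), X2 is higher, and the sums (1.27 to 1.45) overlap. The events used leave out reads of the next exon, so the values are not levels of use.

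These comparisons with the 208 nt exon are also listed as MXE events. In the one that pairs X1 with it, PSI of X1 was 0.416 and 0.416 with RBFOXi and 0.503 and 0.537 with SCRM (delta PSI -0.104). In those that pair X2 with it, PSI of X2 was 0.403 and 0.393 with RBFOXi against 0.205 and 0.226 with SCRM (delta PSI 0.183) and, with another exon on the 3′ side, 0.289 and 0.285 against 0.135 and 0.154 (delta PSI 0.142). All 5 MXE events that hold X1 or X2 were thus without overlap between the groups, and all 5 are readings of the same shift in reads on X1 and X2.

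The other 15 MXE events, 11 in ITGA3 and 4 in ITGA7, pair exons that were not exclusive in these cells. In all 15, both exons had a PSI above 0.95 in every library in the SE readout. A high PSI alone does not show this, since X1 and X2 had it too. In each of these pairs, however, an SE event of the first exon had the second as a flanking exon. Transcripts with only the second exon then count as skipping, and they were rare. For the ITGA3 exons of 250 nt and 87 nt, the skipping counts were 11 and 7 with RBFOXi and 3 and 3 with SCRM. The total was 11817 to 38559 counts per library. Their mean PSI in the MXE readout nevertheless ran from 0.0940 to 0.917. It compares the counts on 2 exons that those SE events nearly always place together, and it differed with the flanking exons of the event. With RBFOXi, the ITGA3 pair of 114 nt and 99 nt had a mean of 0.454 or 0.0983 according to the event. The ITGA7 pair of 132 nt and 114 nt had 0.531 or 0.908. The absolute delta PSI was at most 0.0241. For example, the ITGA3 exons of 250 nt and 87 nt gave an MXE PSI of the first of 0.455 and 0.451 with RBFOXi and 0.406 and 0.462 with SCRM, which overlap. For the ITGA3 exons of 148 nt and 69 nt it was 0.619 and 0.619 with RBFOXi and 0.602 and 0.612 with SCRM, which do not overlap but differ by 0.0114. In ITGA7, the exons of 114 nt and 99 nt gave 0.431 and 0.431 with RBFOXi and 0.373 and 0.441 with SCRM.

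**Figure D3:**
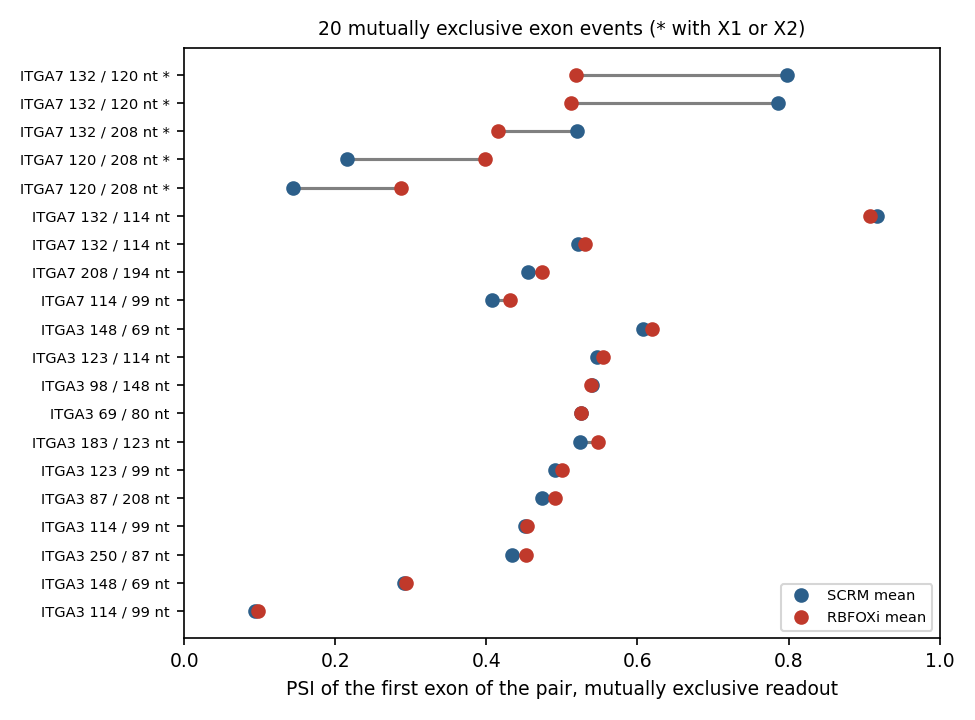
Mean PSI of the first exon in the 20 MXE events of ITGA3 and ITGA7, for SCRM (blue) and RBFOXi (red, n = 2 libraries each); labels give the lengths of the first and second exon and stars mark events with X1 or X2. The 5 starred events are spread by 0.104 to 0.279, and the other 15 by at most 0.0241.

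In limma across all events of a type, with the condition as the only term and Benjamini-Hochberg adjustment, none of the members was called changed (adjusted p under 0.05 and absolute delta PSI of at least 0.1). Of 49 SE events, 19 passed the filter on counts and 3 had an unadjusted p under 0.05, as had 1430 of all 39615 tested SE events. Of the 19, 0 were called, where 0.0682% of all 39615 were. The SE events that did not pass had fewer than 4 skipping counts over the libraries, and not low counts in total. Of 20 MXE events, all passed and 5 had an unadjusted p under 0.05, as had 395 of all 26176 tested MXE events. Of the 20, 0 were called, as were 0% of all 26176. For both X1 against X2 events the adjusted p in limma was 0.0551. A quasi-binomial F test called 0 SE events and 4 MXE events of the 3 genes. It called 96 of all 39615 SE events and 23 of all 26176 MXE events. Other definitions of limma's variance trend called 0 or 2 MXE events of the 3 genes, and 0 to 3 of all 26176. Over all 18 alternatives the count of MXE events of the 3 genes called was 0 to 4, so that the call depends on the settings. The alternative 3′ splice site of ITGA7 was tested and not called, where 0% of all 3009 tested were. Its unadjusted p in limma was not under 0.05, while that of 100 of the 3009 was. The quasi-binomial F test did not call it either, and called 3 of the 3009.

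The groups did not overlap in 11 of the 19 tested SE events of the 3 genes, against 30.8% of all tested SE events, and in 8 of the 20 MXE events, against 24.4%. Those that also reached 0.1 in absolute delta PSI were 0 SE events and 5 MXE events, all in ITGA7, where 2.28% of all tested MXE events had both. Nothing is read from these counts, because the genes were chosen from the same comparison.

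Library SCRM replicate 1 stood apart in the distribution of its reads along genes, which was noticed in the counts of ITGA3 and ITGA7 and then measured, with limits set after the data had been seen. Over exons with a PSI above 0.95 in every library, the counts of exons near the 5′ end were divided by those of as many exons near the 3′ end, the exons of a gene being split into 3 equal parts. In ITGA3 (15 exons) the ratio was 0.692 and 0.681 with RBFOXi and 0.342 and 0.812 with SCRM. In ITGA7 (15 exons, X1 and X2 left out) it was 1.15 and 1.13 with RBFOXi and 0.602 and 1.29 with SCRM. In both genes SCRM replicate 1 had the lowest ratio and SCRM replicate 2 the highest. Over 937 genes with at least 8 such exons, the median log2 ratio relative to the mean of the 4 libraries was 0.23 in each RBFOXi library, -0.98 in SCRM replicate 1 and 0.53 in SCRM replicate 2. It was below 0 in 97.5% of genes in SCRM replicate 1.

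**Figure D4:**
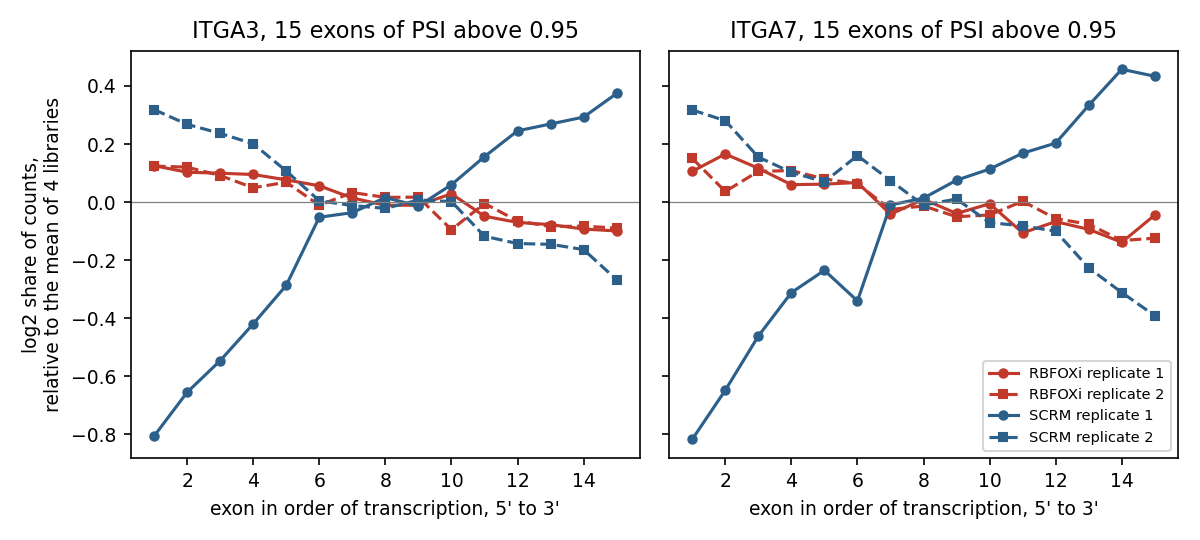
Share of each exon in the counts of its gene, in each library, on a log2 scale relative to the mean of the 4 libraries, for the exons of ITGA3 and ITGA7 with a PSI above 0.95 in order from 5′ to 3′. The line of SCRM replicate 1 rises along both genes, and its ratio of 5′ to 3′ exons is 0.342 in ITGA3 and 0.602 in ITGA7.

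An MXE PSI compares an upstream with a downstream exon, and SCRM replicate 1 had the lowest value of the 4 libraries in 11 of the 15 MXE events without X1 or X2. Among the 5 events with X1 or X2 its place varied. It had the highest PSI of X1 in the first X1 against X2 event (0.791) and lay below SCRM replicate 2 in the second (0.797 against 0.799). For X1 against the 208 nt exon it lay below SCRM replicate 2 as well (0.503 against 0.537), and in both events of X2 against that exon it was the lowest of the 4 libraries (0.205 and 0.135). Without SCRM replicate 1 the delta PSI of X1 was -0.269, against -0.274 with it. For X2 against the 208 nt exon it was 0.133 without that library and 0.142 with it. The part of the read distribution in the MXE differences of ITGA3 and ITGA7 was not tested.

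The tail A exons differed more between the 3 genes than between the treatments. In ITGA3 the exon, of 142 nt at chr17:48165589-48165730 on the plus strand, was included in nearly all transcripts, with a PSI of 0.998 and 0.998 with RBFOXi and 0.997 and 0.997 with SCRM on 31963 to 49093 counts per library. In ITGA7 the exon, of 113 nt at chr12:56079986-56080098 on the minus strand, was almost always skipped, with a PSI of 0.00804 and 0.00795 with RBFOXi and 0.000490 and 0.00592 with SCRM. Its inclusion counts were 15 and 7 with RBFOXi and 1 and 4 with SCRM, out of 875 and 413 and of 949 and 316. The ITGA7 values did not overlap between the groups, but as plain shares the 95% exact intervals of RBFOXi replicate 2 (0.684% to 3.46%) and SCRM replicate 2 (0.346% to 3.21%) do. ITGA3 thus read as tail A and ITGA7 as tail B in all 4 libraries.

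In ITGA6 the tail A exon, of 130 nt at chr2:173366500-173366629 on the plus strand, was the one with both forms in clear use. Its PSI was 0.446 and 0.299 with RBFOXi and 0.405 and 0.777 with SCRM, and the groups overlapped. The mean difference of -0.219 rests on SCRM replicate 2: without it the delta PSI was -0.0330, and without SCRM replicate 1 it was -0.405. The counts were 13 to 46 per library. The plain share of inclusion counts, with its 95% exact interval, was 65.4% (44.3 to 82.8) and 50.0% (28.2 to 71.8) with RBFOXi and 61.5% (31.6 to 86.1) and 89.1% (76.4 to 96.4) with SCRM. The intervals of RBFOXi replicate 2 and SCRM replicate 2 do not meet, while that of SCRM replicate 1 overlaps the other 3.

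**Figure D5:**
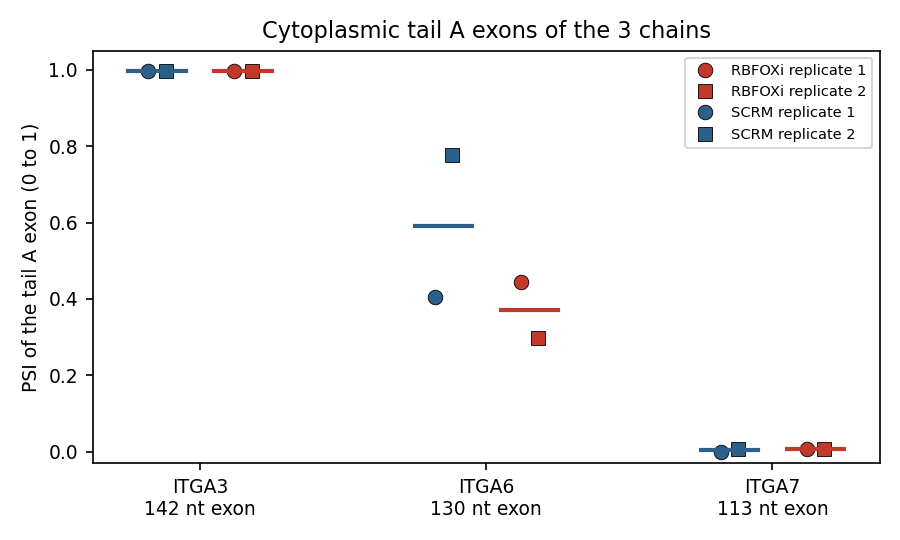
PSI (0 to 1) of the cytoplasmic tail A exon of ITGA3, ITGA6 and ITGA7 in each library, with lines at the group means. ITGA3 lies at 0.997 to 0.998, ITGA7 at 0.00804 or below and ITGA6 between 0.299 and 0.777 with both groups overlapping.

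The remaining exons were almost always included. All 23 SE events of ITGA3, at 15 exons, had a PSI above 0.95 in every library, with a lowest value of 0.979 and an absolute delta PSI of at most 0.00207. The lowest was an exon of 197 nt, at 0.981 and 0.981 with RBFOXi and 0.979 and 0.979 with SCRM. In ITGA7, 22 of the 25 SE events were above 0.95 in every library, with an absolute delta PSI of at most 0.00835. These 22 include the further SE events of X1 and X2 described above, and the value of 0.00835 is that of X2. The other 3 were the tested events of X1, X2 and tail A.

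The alternative 3′ splice site of ITGA7 makes an exon of 170 nt or of 152 nt. PSI of the longer form was 0.840 and 0.863 with RBFOXi and 0.881 and 0.834 with SCRM on 352 to 694 counts, and the groups overlapped. The alternative 5′ splice site of ITGA6 makes an exon of 174 nt or of 129 nt. It had 3 to 23 counts per library, fell under the filter and was not tested, with a PSI of the longer form of 0.917 and 0.797 with RBFOXi and 1.00 in both SCRM libraries.

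Copies of UGCAUG, and of its shorter core GCAUG, were searched on the strand of the gene in the introns beside these exons, written as TGCATG and GCATG in the genome. Of 30617 tested SE exons, 8.16% had TGCATG in the 300 nt before and 8.36% in the 300 nt after the exon, and for GCATG, which every TGCATG contains, it was 23.7% and 24.1%. X1 had 1 copy of TGCATG in the 505 nt intron before it, which starts 253 nt from the exon. That intron held 3 copies of GCATG, at 252, 293 and 422 nt from the exon, the nearest being part of this TGCATG. X2 had no TGCATG within 300 nt on either side and 1 copy of GCATG 33 nt after the exon. The stretches around the TGCATG before X1 and the GCATG after X2 are given on the strand of the gene, with the motif in capitals, at chr12:56094407-56094446 and chr12:56093594-56093653.
ITGA7 before X1: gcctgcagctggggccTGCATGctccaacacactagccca
ITGA7 after X2: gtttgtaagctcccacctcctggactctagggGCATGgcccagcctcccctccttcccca

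The tail A exon of ITGA7, with its highest PSI at 0.00804, had 3 copies of TGCATG in the 300 nt after it, starting at nucleotides 17, 114 and 248 of the intron, where 0.0817% of tested SE exons had at least 3. The first 140 nt of that intron, at chr12:56079846-56079985, hold the nearest copies, in capitals.
ITGA7 after tail A: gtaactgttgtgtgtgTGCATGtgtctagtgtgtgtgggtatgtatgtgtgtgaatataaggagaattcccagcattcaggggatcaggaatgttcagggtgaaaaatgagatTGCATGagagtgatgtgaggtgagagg

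The tail A exon of ITGA6 had no TGCATG within 300 nt and its nearest copies 447 and 600 nt after the exon, and that of ITGA3 had none in the 355 nt intron before it or the 743 nt intron after it. A match of letters is a description of the sequence and not of binding.

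Genes that work with these chains were followed in the same fit. Other integrin subunits gave 89 tested SE events in 13 of 23 listed genes and laminin chains, their ligands, 29 in 7 of 11, and none was called, with a median delta PSI of 0.000358 and -0.00113. Membrane and cytoplasmic partners of integrins gave 204 tested SE events in 27 of 32 genes, with a median delta PSI of 8.35e-06, and 1 (0.490%) was called, where 0.0682% of all tested SE events were. The median over all tested SE events was -5.65e-05. The called event was an 81 nt exon of ACTN1, an actinin that links integrins to actin filaments, at chr14:69345706-69345786. Its PSI was 0.966 and 0.971 with RBFOXi and 0.838 and 0.895 with SCRM, higher by 0.102 (limma, adjusted p = 0.0347). This event was called in 9 of the 17 alternatives that fitted it, and not without RBFOXi replicate 2 (delta PSI 0.0993), SCRM replicate 1 (0.0738) or SCRM replicate 2 (0.130). Without either SCRM library it missed the limit on the adjusted p as well or instead. Another event of the same ACTN1 exon, with at least as high a mean count, was not called. It took the place of the called event where 1 event per exon was kept, and was not called there either. In MXE events, 0 of 51, 0 of 12 and 0 of 137 tested events of these lists were called.

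Of the cell line's markers, VIM, FN1, CD44 and TNC, genes of mesenchymal cells and matrix, each had an SE event with a mean of at least 28780 counts, and NES had one with 310.5. GFAP, SOX2 and OLIG2 had no SE event, which does not show that they were not expressed. Among 8 epithelial and blood markers, KRT8 reached 210 counts, ESRP2 reached 3.5 and the others had no SE event. A 273 nt exon of FN1, fibronectin, a further integrin ligand, at chr2:216257654-216257926, was called. Its PSI was 0.0683 and 0.0876 with RBFOXi and 0.238 and 0.291 with SCRM, a delta PSI of -0.186 (limma, adjusted p = 0.000466), the only call among 173 tested SE events of these markers (0.578%). It was called in 12 of 18 alternatives, and not without SCRM replicate 1 (adjusted p = 0.286 in limma) or without SCRM replicate 2 (0.303).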

How the data were processed

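Per the labels and the methods of the study, STAR 2.4.2a placed the reads on hg19, keeping unique alignments, and rMATS counted them per event of the UCSC known genes. The deposited cells hold whole-number counts of inclusion and skipping reads for each library, not normalized, and the authors also gave effective lengths; other columns of the authors' comparison (p-values, FDR, inclusion levels) were not used. The methods of the study give a common read number for all samples. By library, the deposited counts summed to 114415530 to 136097319 over SE events, where a read can enter several events. PSI was computed from counts per effective position, and the filter asked for 5 counts or more per library, 20 on average and 4 of each form. Events that passed were fitted with limma 3.58.1 (R 4.3.3) on log2 odds with a pseudocount of 0.5. The variance trend of limma used the log2 of the mean information of each event. This definition follows an earlier analysis of these data and was adopted as the main one after the calls under it and under the inverse mean variance, which was run first, were both known. The test was checked on simulated data, and the dispersion trend of the quasi-binomial F test was revised after it had failed that check, until few unchanged simulated events were called.

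The members and gene lists were chosen with earlier results of these data known. Events named were distinct exons or pairs with a mean PSI of 0.05 to 0.95 in a group or an absolute delta PSI of at least 0.05, up to 8 per gene and type by mean count, plus the tail A exons and X1 and X2. In MXE tables inclusion is the exon transcribed first. Sequences came from GRCh37 and GENCODE 44 lifted to it, motifs were sought as overlapping matches, and alignments were made with Biopython 1.88. Same-numbered libraries deviated together at a correlation of 0.0944 for SE and 0.0881 for MXE events. Alternatives were another test, other variance trends, the replicate number as a block, other pseudocounts, filters and delta PSI minima, plain shares, 1 event per exon and each library left out.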

Additional observations from a re-analysis of the deposited data

How the results depend on the processing

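SE events of the 3 genes called stayed at 0 under all 18 alternatives run. MXE events called, 0 in limma with the trend on mean information, came to 4 with the quasi-binomial F test, 2 with the trend on the mean log information, 2 with that on the inverse mean variance, 2 when the pseudocount was 1, 2 to 4 when 1 library was left out and 4 with the replicate block described below, and stayed at 0 under the other 9. Leaving out SCRM replicate 2, so that SCRM replicate 1 stood alone and was assumed to vary like the others, called 1400 of all MXE events; leaving out SCRM replicate 1 called 20, RBFOXi replicate 1 15 and RBFOXi replicate 2 4. Of all 26176 tested MXE events, the quasi-binomial F test called 23. The trend on the mean log information called 2, that on the inverse mean variance 3 and a pseudocount of 1 called 2. The quasi-binomial F test and the trends were chosen after seeing the data, and the planned edgeR fit was not run. The titles of same-numbered libraries end alike, but neither labels nor methods say what the numbers share. With the replicate block 4 MXE events and 0 SE events of the 3 genes were called, against 77 and 119 of all events, and with 2 pairs the numbers are not taken to pair the samples.

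The delta PSI of X1 against X2 stayed between -0.284 and -0.265 with a library left out, was -0.269 with plain shares and -0.277 as the median over both events. The X2 exon against the 208 nt exon moved from 0.142 to 0.112 with plain shares. In the tested SE events, plain shares gave -0.0237 for X1 and -0.0159 for X2, with the direction kept. Listed gene events called numbered 1, and 3 with the quasi-binomial F test, the trend on the inverse mean variance and the replicate block, 2 with the trend on the mean log information, a pseudocount of 1 and the loosest filter, and 0 with the trend on the mean count, no trend, a pseudocount of 0.1, a delta PSI minimum of 0.2 and plain shares, and 0 to 3 with a library left out. These counts are not always of the same event: with 1 event per exon and without RBFOXi replicate 2 the 1 call was an exon of FLNA, lower with RBFOXi, and not that of ACTN1. The FN1 exon lost its call with the trend on the mean count, no trend, a pseudocount of 0.1, a delta PSI minimum of 0.2 and without either SCRM library. With plain shares the delta PSI was -0.336 for FN1 and 0.0545 for ACTN1. The cause was not tested. The median log2 of the 5′ to 3′ ratio of SCRM replicate 1, relative to the mean of the libraries, was -1.18 over 237 genes with at least 12 exons, against -0.98 with at least 8. Few reads limit ITGA6 and the events skipping both X1 and X2.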
